A study of Mus musculus with 8 samples.

Results

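The set examined here holds 51 genes of the semaphorin, SLIT, netrin and ephrin systems, taken as a list of gene symbols and matched to the arrays through their mouse Entrez gene IDs. It is 51 of the 24235 genes with such an ID on the array. It has 28 ligands, 22 receptors and the adhesion protein gene Slitrk6. RNA came from primary follicular cells of 8-week-old female Swiss mice, 5 mice pooled per replicate. Intact preantral follicles were dispersed and the cells kept as monolayers up to day 9, the last days in medium without added hormones and with charcoal-treated serum. The labels name no engineered allele. All groups received an siRNA at 12 pmol, a red fluorescent reporter plasmid and a lipid carrier, and differed in 2 ways. The siRNA was a control one or one against FOXL2, a forkhead transcription factor of granulosa cells. The other was 10 h with vehicle or with 100 nM 17β-estradiol (E2), which the study places after 24 h of siRNA. This gave 4 groups of 2 one-colour arrays. An siRNA lowers its target in part and for a short time, and the labels call the cells mostly granulosa cells, so the groups model neither a deletion nor a pure cell type. In bulk RNA, fewer cells of a type and less RNA per cell cannot be told apart.

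Semaphorins, SLITs, netrins and ephrins are cues first known for steering growing axons, and they also act on the migration, adhesion and vessel growth of other tissues. Class 3 semaphorins are secreted and signal through plexins, most of them with a neuropilin as the binding subunit. SLITs bind ROBO receptors, and netrins bind DCC, neogenin and UNC5 receptors. Ephrins are held on the cell surface, by a lipid anchor in class A and by a transmembrane segment in class B, and signal both into the cell with the EPH receptor and back into their own.

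All values below are log2 scaled signals: the scanner's processed intensity divided by that array's 75th percentile and multiplied by a common constant, averaged over the probes of a gene. Differences are on the same log2 scale, where 1 is a change of 2-fold, and come from a limma fit over the 15645 genes whose median scaled signal reached 10. A gene is said to be called where its adjusted p (Benjamini-Hochberg, over these 15645 genes) was under 0.05. Across genes, both replicates of each group correlated at 0.989 to 0.992, and no probe was saturated. The 8 arrays lay on 1 slide. Foxl2 itself did not fall as a gene (0.18, adjusted p = 0.334): its bright probe changed by 0.18 and its dim probe by -0.97 (adjusted p = 0.364 and 0.02). Of the genes known to depend on FOXL2 in granulosa cells, Esr2 was at -0.46 (adjusted p = 0.0168) and Cyp19a1 at -0.75 (adjusted p = 0.0817) for the mean siRNA effect. The groups are named by their labels, and every direction rests on those labels. So do the size and the call of every effect given for 1 treatment or of E2. That holds for E2 as well. The study names Hsd11b2, Tacc1, Angpt2 and Cbs as genes raised by E2. In the arrays labelled control siRNA their E2 differences lay the other way, at -2.33, -1.02, -1.24 and -2.11, with Cbs the 1 called (adjusted p = 0.0143). With the replicate block Hsd11b2 and Tacc1 were called lower too (adjusted p = 0.0326 and 0.0124). In the arrays labelled FOXL2 siRNA their E2 differences were 1.18, 0.55, 1.94 and 1.31, with 0 of the 4 called, and Angpt2 and Cbs called higher with the block (adjusted p = 0.0174 and 0.00157). With vehicle all 4 were called lower in the arrays labelled FOXL2 siRNA, at -3.74, -1.76, -3.82 and -2.65. Of the 10 granulosa markers, 7 were well above background on all 8 arrays, while Amh and Fshr, which define the cells of growing follicles, were not well above background on any. Markers of the other cell types are given beside the genes they bear on.

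Of the 51 genes, 46 passed the filter, and 45 of these were well above background on all 8 arrays. Slitrk6 was so on 4, all labelled control siRNA, and passed the filter through them. Its place in the counts of called, lower and non-overlapping genes below is therefore no support. The 5 that did not pass were Sema3g, Sema6a, Ntn1, Ntn4 and Unc5c, which were well above background on 3, 2, 0, 1 and 0 arrays. A single probe stood for 32 genes, 2 probes for 16 and 3 probes for 3.

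The first comparison set the arrays labelled FOXL2 siRNA against those labelled control siRNA, to see which guidance genes differed when FOXL2 was targeted. With the mean of the effects under vehicle and under E2, 19 of the 46 genes were called, 12 higher and 7 lower, where 12.6% of all 15645 genes were. With vehicle alone 9 were called, 7 higher and 2 lower, against 6.56% of all genes. With E2 alone 10 were called, 6 higher and 4 lower, against 4.38%. Robo2, Robo4, Unc5b, Efna4, Efnb1 and Efnb2 were called with both treatments, and 13 genes with at least 1. The 46 genes had a median absolute difference of 0.47 for the mean effect, and all genes one of 0.15. The 4 arrays labelled FOXL2 siRNA did not overlap the 4 labelled control siRNA for 23 of the 46 genes, where that held for 20.9% of all genes. The siRNA effects with vehicle and with E2, which share no array, had the same sign for 38 of the 46 genes and for 72.7% of all genes.

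Arrays with the same replicate number deviated together across genes, so the fit was repeated with the replicate number as a block. With the block the counts rose to 31 genes for the mean effect, 26 with vehicle and 23 with E2, against 27.6%, 18.8% and 14.9% of all genes, and none of the calls above was lost. The 12 genes called for the mean effect with the block but not without it were Sema3b, Sema3d, Sema4b, Sema4c, Sema6d, Slit3, Neo1, Epha2 and Ephb3, which were higher, and Sema5a, Robo1 and Efna1, which were lower.

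**Figure D1:**
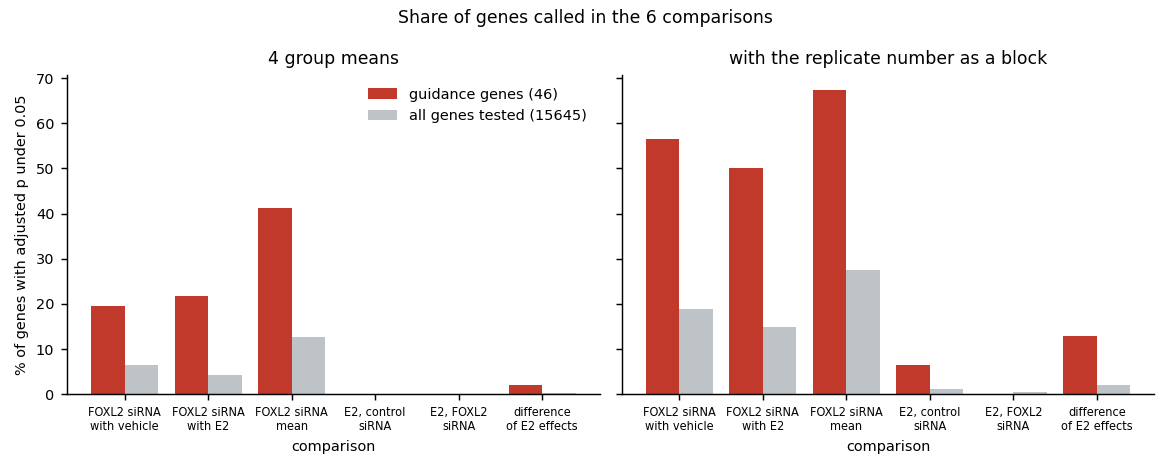
Share of genes with an adjusted p under 0.05 (y axis, %) in the 6 comparisons (x axis), for the 46 guidance genes that passed the filter (red) and all 15645 genes tested (grey), with 4 group means (left) and with the replicate number as a block (right). For the mean siRNA effect the bars stand at 41.3% and 12.6% on the left and at 67.4% and 27.6% on the right.

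The plot of shares is a description of the 46 genes beside all genes: the genes were chosen with earlier results of these data known.

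Upstream sequence is shown for 5 of the called genes: for the 3 lower genes that hold a form of the forkhead motif, and for Efnb1 and Robo4, the higher genes with the lowest adjusted p among those with a promoter in the RefSeq table (build GRCm38.p6). Each line gives the 250 bases before the start of transcription, 5′ to 3′ on the gene's own strand. The search covered these and the next 50 bases, on both strands, for the forkhead form GTAAACA and its variants with another next to last letter (GTAAATA), another first letter (ATAAACA) or both changes (ATAAATA). It also covered AGGTCA, the core of the sites that estrogen receptors bind, and capitals mark the matches. The stretches are chr14:110755150-110755399 on the minus strand for Slitrk6, chr6:82939770-82940019 on the minus strand for Sema4f, chr13:51748811-51749060 and chr13:51756684-51756933 on the minus strand for Sema4d (in that order), chrX:99135811-99136060 on the plus strand for Efnb1 and chr9:37401722-37401971 on the plus strand for Robo4.
Slitrk6: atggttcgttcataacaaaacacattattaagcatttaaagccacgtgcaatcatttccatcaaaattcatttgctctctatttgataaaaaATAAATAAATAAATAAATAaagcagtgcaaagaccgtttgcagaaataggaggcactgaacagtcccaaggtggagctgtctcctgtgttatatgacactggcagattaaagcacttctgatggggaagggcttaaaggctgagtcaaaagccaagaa
Sema4f: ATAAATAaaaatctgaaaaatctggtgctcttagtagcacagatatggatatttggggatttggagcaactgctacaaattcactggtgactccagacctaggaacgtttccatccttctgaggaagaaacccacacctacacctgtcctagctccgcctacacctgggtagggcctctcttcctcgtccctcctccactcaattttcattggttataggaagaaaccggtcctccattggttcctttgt
Sema4d: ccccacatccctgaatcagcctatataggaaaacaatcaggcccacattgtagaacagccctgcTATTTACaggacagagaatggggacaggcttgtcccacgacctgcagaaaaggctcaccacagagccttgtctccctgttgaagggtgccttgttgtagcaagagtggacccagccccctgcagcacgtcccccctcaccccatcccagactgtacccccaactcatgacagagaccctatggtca
Sema4d, next start: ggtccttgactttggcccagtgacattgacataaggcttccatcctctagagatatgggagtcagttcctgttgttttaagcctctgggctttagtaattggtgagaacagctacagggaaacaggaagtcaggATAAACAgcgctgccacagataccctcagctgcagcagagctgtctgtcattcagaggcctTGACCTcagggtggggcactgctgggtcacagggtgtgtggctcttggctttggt
Efnb1: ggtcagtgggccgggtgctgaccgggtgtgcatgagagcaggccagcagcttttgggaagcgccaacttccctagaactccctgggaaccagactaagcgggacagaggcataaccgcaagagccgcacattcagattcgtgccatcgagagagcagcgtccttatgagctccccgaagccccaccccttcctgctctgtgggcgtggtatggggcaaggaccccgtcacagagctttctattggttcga
Robo4: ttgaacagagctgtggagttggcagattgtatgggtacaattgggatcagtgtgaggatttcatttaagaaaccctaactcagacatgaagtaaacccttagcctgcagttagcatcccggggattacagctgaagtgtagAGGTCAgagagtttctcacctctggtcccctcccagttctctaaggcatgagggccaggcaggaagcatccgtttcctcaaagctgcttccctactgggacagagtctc

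Of all 32851 promoters in that table, 15% hold at least 1 of the forkhead forms and 16.3% AGGTCA. Among the genes called for the mean effect that have a promoter there, 3 of 7 lower genes (Sema4d, Sema4f and Slitrk6) and 0 of 10 higher genes held a forkhead form. These count genes, over 11 promoters of lower and 10 of higher genes, while the 15% is a share of promoters. Slitrk6 is among the lower genes only with the limit on its filter given above. Slitrk6 held ATAAATA 4 times in overlapping copies that begin 158, 154, 150 and 146 bases before the start, and 1 more form after the start. Sema4f held it 250 bases before. Sema4d held a form in 2 of its 3 promoters, 186 and 116 bases before the respective start. AGGTCA lay in the promoters of Plxnd1, Nrp1 and Robo4, which were higher, and in 1 of Sema4d, which was lower, 103, 246, 109 and 55 bases before the start. These are matches of letters, with no binding measured, and Sema4d and Robo2 have 3 listed starts each, which gives them more chances of a match. Promoters of Sema3f and Plxna4, both higher, were not analysed here.

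**Figure D2:**
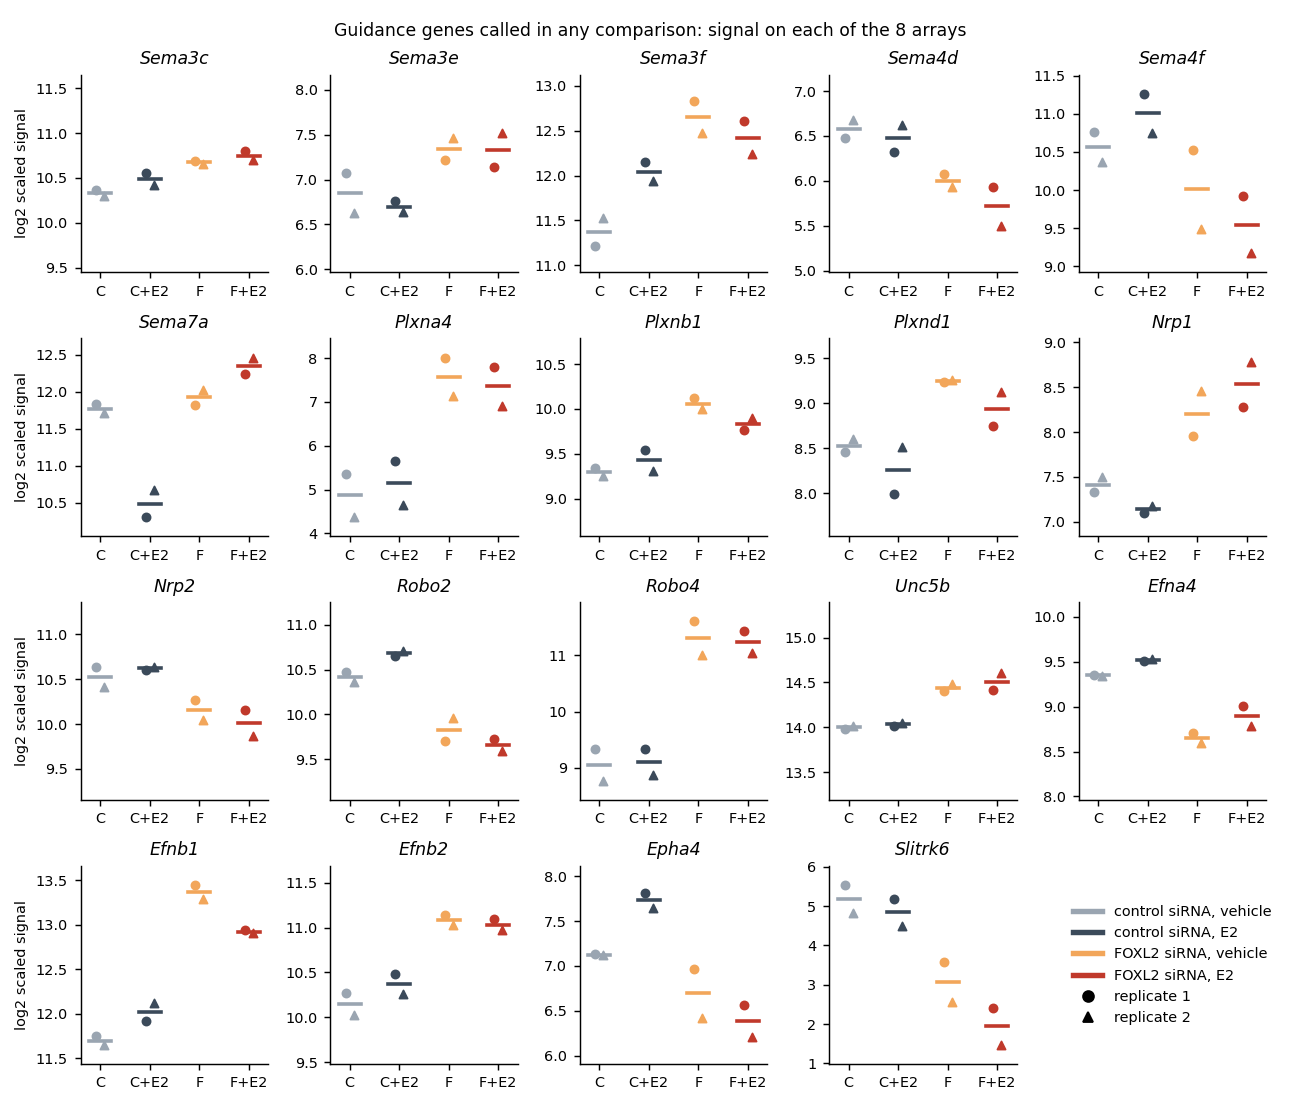
Log2 scaled signal (y axis) on each of the 8 arrays for the 19 guidance genes called in any comparison, with control siRNA (C) or FOXL2 siRNA (F) and vehicle or E2 on the x axis. Points are arrays (circles replicate 1, triangles replicate 2) and lines are group means; the y axes differ between panels. Robo4 lies between 8.77 and 9.33 with control siRNA and between 11.01 and 11.60 with FOXL2 siRNA, and Sema7a is low in the group with control siRNA and E2.

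In the plot of called genes by array, 17 of the 19 have FOXL2 siRNA arrays that do not overlap the control siRNA arrays, beside 20.9% of all genes. The 19 were picked by their siRNA effect on these same arrays, so this follows in part from the calls and adds no support. Sema4f and Sema7a are the 2 that overlap.

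Among the class 3 semaphorins, 6 of 7 genes passed the filter, and 3 were higher, 0 lower. Sema3f, a ligand that binds neuropilin-2, read 11.22 and 11.53 on the vehicle arrays labelled control siRNA, 12.15 and 11.93 on their E2 counterparts, 12.83 and 12.47 on the vehicle arrays labelled FOXL2 siRNA, and 12.60 and 12.24 on their E2 counterparts. All 4 FOXL2 siRNA arrays lay above all control arrays, and the vehicle controls were the lowest. Its difference was 1.28 (SE 0.18, adjusted p = 0.00707) with vehicle, 2.43-fold higher, and 0.38 (SE 0.18, adjusted p = 0.348) with E2. Sema3c, which acts in heart outflow and vessel development, stood at 10.36 and 10.30 in the vehicle controls, 10.55 and 10.43 in the E2 controls, 10.69 and 10.66 after FOXL2 siRNA and vehicle, and 10.80 and 10.70 after FOXL2 siRNA and E2, with no overlap between the siRNAs and a mean difference of 0.30 (SE 0.064, adjusted p = 0.0218). Sema3e, which binds plexin-D1 without a neuropilin, gave 7.07 and 6.62 in the vehicle controls, 6.76 and 6.63 in the E2 controls, 7.22 and 7.47 after FOXL2 siRNA and vehicle, and 7.14 and 7.52 after FOXL2 siRNA and E2. Its mean difference was 0.57 (SE 0.15, adjusted p = 0.0436). Sema3d had the third-largest absolute mean effect among uncalled genes, 0.73 (SE 0.21, adjusted p = 0.0589), with group means of 9.72 ± 0.54, 10.29 ± 0.35, 10.74 ± 0.42, 10.72 ± 0.016 for vehicle controls, E2 controls, FOXL2 siRNA plus vehicle and FOXL2 siRNA plus E2 (mean ± SD, n = 2, an order kept below). With the block Sema3d was called (adjusted p = 0.00603). Sema3b had group means of 10.90 ± 0.34, 10.98 ± 0.30, 11.38 ± 0.33, 11.39 ± 0.29, and a mean difference of 0.44 (SE 0.17, adjusted p = 0.139) that was called with the block (adjusted p = 8.55e-05). The remaining gene that passed, Sema3a, had a mean difference of -0.19. Sema3e and Sema3c were not among the calls of either treatment taken alone.

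The semaphorins fixed to the membrane had 8 of 9 genes past the filter, 1 higher and 2 lower for the mean effect. Sema7a, which has a lipid anchor and binds plexin-C1 and integrins, gave 11.83 and 11.71 in the vehicle controls, 10.31 and 10.67 in the E2 controls, 11.83 and 12.03 after FOXL2 siRNA and vehicle, and 12.24 and 12.46 after FOXL2 siRNA and E2. Its FOXL2 siRNA and control siRNA arrays differed by 1.86 (SE 0.14, adjusted p = 0.00132) with E2, 3.64-fold higher, and by 0.16 (SE 0.14, adjusted p = 0.627) with vehicle. Sema4d, a ligand of plexin-B1, read 6.47 and 6.67 in the vehicle controls, 6.33 and 6.62 in the E2 controls, 6.07 and 5.93 after FOXL2 siRNA and vehicle, and 5.93 and 5.50 after FOXL2 siRNA and E2. All 4 FOXL2 siRNA arrays lay below all control arrays, with a mean difference of -0.66 (SE 0.15, adjusted p = 0.0268). Sema4f stood at 10.76 and 10.36 in the vehicle controls, 11.26 and 10.75 in the E2 controls, 10.52 and 9.49 after FOXL2 siRNA and vehicle, and 9.92 and 9.18 after FOXL2 siRNA and E2, where the replicate 1 arrays were the higher ones of every group and replicate 1 with FOXL2 siRNA and vehicle lay among the control arrays. Its mean difference was -1.01 (SE 0.26, adjusted p = 0.0451), from -0.55 with vehicle to -1.46 with E2. One of its 2 probes was near background on all arrays (none well above it), so the values follow the other probe. Sema5a had group means of 12.49 ± 0.28, 12.31 ± 0.16, 11.84 ± 0.45, 11.74 ± 0.40 and a mean difference of -0.61 (SE 0.18, adjusted p = 0.0692), called with the block (adjusted p = 4.97e-05), and its siRNA groups did not overlap. Sema4c, a ligand of plexin-B2, had group means of 15.21 ± 0.0053, 15.36 ± 0.13, 15.62 ± 0.067, 15.60 ± 0.23 and a mean difference just short of the threshold, 0.32 (SE 0.087, adjusted p = 0.0503). Sema4a, Sema4b and Sema6d had mean differences between 0.0047 and 0.45.

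All 7 plexins, the semaphorin receptors, passed the filter, with 3 higher and 0 lower. Plxna4, which works with neuropilins as a receptor of class 3 semaphorins, gave 5.36 and 4.38 on the vehicle arrays labelled control siRNA, 5.65 and 4.65 on their E2 counterparts, 8.01 and 7.13 on the vehicle arrays labelled FOXL2 siRNA, and 7.79 and 6.91 on their E2 counterparts. The FOXL2 siRNA arrays were all above the control arrays, and replicate 1 was the higher of each group. Its difference was 2.70 (SE 0.50, adjusted p = 0.0204) with vehicle, 6.5-fold higher, and 2.20 (SE 0.50, adjusted p = 0.0547) with E2, the latter called with the block (adjusted p = 3.49e-06). The second of its 2 probes was well above background on 0 arrays. Plxnb1, the receptor of Sema4d, stood at 9.35 and 9.25 in the vehicle controls, 9.54 and 9.31 in the E2 controls, 10.12 and 10.00 after FOXL2 siRNA and vehicle, and 9.76 and 9.90 after FOXL2 siRNA and E2. Its mean difference was 0.58 (SE 0.082, adjusted p = 0.00386), in the opposite direction to that of its ligand Sema4d. Plxnd1, the receptor of Sema3e and a gene of vessel patterning, read 8.46 and 8.60 in the vehicle controls, 7.99 and 8.52 in the E2 controls, 9.23 and 9.26 after FOXL2 siRNA and vehicle, and 8.75 and 9.13 after FOXL2 siRNA and E2, with no overlap between the siRNAs and a mean difference of 0.70 (SE 0.14, adjusted p = 0.0148). Sema3e and Plxnd1, a ligand and its receptor, were both higher. Plxnb2 and Plxna2 had group means of 13.86 ± 0.07, 13.92 ± 0.081, 14.00 ± 0.36, 14.08 ± 0.042 and of 9.86 ± 0.19, 9.54 ± 0.15, 9.44 ± 0.027, 9.82 ± 0.032, with mean differences of 0.15 and -0.068. Plxna1 and Plxna3 had mean differences of 0.055 and -0.20, none of these 4 called.

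The neuropilins moved in opposite directions. Nrp1, the co-receptor of Sema3a and of vascular endothelial growth factor, gave 7.33 and 7.49 in the vehicle controls, 7.10 and 7.17 in the E2 controls, 7.96 and 8.45 after FOXL2 siRNA and vehicle, and 8.28 and 8.78 after FOXL2 siRNA and E2. The lowest FOXL2 siRNA array lay above the highest control array, and the mean difference was 1.09 (SE 0.15, adjusted p = 0.00362), 2.13-fold higher. Nrp2, the co-receptor that binds Sema3f, gave 10.64 and 10.41 in the vehicle controls, 10.60 and 10.64 in the E2 controls, 10.27 and 10.04 after FOXL2 siRNA and vehicle, and 10.15 and 9.87 after FOXL2 siRNA and E2. Its mean difference was -0.49 (SE 0.096, adjusted p = 0.0152), and its 2 probes changed by -0.48 and -0.56. Sema3f and Nrp2, a ligand and its receptor, thus had mean differences of opposite sign.

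Among the SLIT ligands, which all passed, none was called for the mean effect without the block, and 1 of 3 was with the block. Slit3 had the largest absolute mean effect of all uncalled genes, 0.92 (SE 0.30, adjusted p = 0.0941), with group means of 7.36 ± 0.49, 6.73 ± 0.75, 7.85 ± 0.57, 8.08 ± 0.43. Its replicate 2 arrays were higher than its replicate 1 arrays in every group, and it was called with the block (adjusted p = 1.8e-05). Slit1 had group means of 5.09 ± 0.028, 5.15 ± 0.32, 4.32 ± 0.64, 4.38 ± 0.72 and a mean difference of -0.77 (SE 0.30, adjusted p = 0.151), not called either way. Slit2 had group means of 8.93 ± 0.058, 9.07 ± 0.30, 9.13 ± 0.12, 8.81 ± 0.14 and a mean difference of -0.031.

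The ROBO receptors had 1 gene higher and 1 lower. Robo4, a ROBO receptor first known from vessel endothelium, read 9.33 and 8.77 on the vehicle arrays labelled control siRNA, 9.33 and 8.88 on their E2 counterparts, 11.60 and 11.01 on the vehicle arrays labelled FOXL2 siRNA, and 11.43 and 11.05 on their E2 counterparts. The nearest arrays of the 2 siRNAs lay 1.68 apart, and the difference was 2.26 (SE 0.27, adjusted p = 0.00401) with vehicle, 4.78-fold higher, and 2.14 (SE 0.27, adjusted p = 0.00675) with E2, 4.39-fold higher. Of 8 endothelial markers, Cdh5, Tek and Emcn were not well above background on any array and Tie1 was on 1, and 0 of the 4 that passed the filter were called for the mean effect without the block. With it Kdr, a receptor of vascular endothelial growth factor, was called higher (0.36, adjusted p = 0.00756). The summed log2 level of all 8 lay between 11.58 and 11.99 with control siRNA and between 11.77 and 12.02 with FOXL2 siRNA. Robo2 gave 10.47 and 10.36 in the vehicle controls, 10.65 and 10.71 in the E2 controls, 9.70 and 9.96 after FOXL2 siRNA and vehicle, and 9.72 and 9.59 after FOXL2 siRNA and E2, lower on every FOXL2 siRNA array than on any control array. It changed by -0.58 (SE 0.12, adjusted p = 0.0256) with vehicle and -1.02 (SE 0.12, adjusted p = 0.00479) with E2. Its 3 probes changed by -0.84, -0.83 and -0.76 for the mean effect and were called each. Robo1 had group means of 6.79 ± 0.38, 6.94 ± 0.24, 6.37 ± 0.11, 6.28 ± 0.041 and a mean difference of -0.54 (SE 0.15, adjusted p = 0.0588), called with the block (adjusted p = 0.00367).

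The netrins Ntn1 and Ntn4 did not pass the filter and were not tested. Of their receptors, Unc5b, which also binds Robo4, gave 13.98 and 14.02 in the vehicle controls, 14.01 and 14.05 in the E2 controls, 14.40 and 14.48 after FOXL2 siRNA and vehicle, and 14.41 and 14.60 after FOXL2 siRNA and E2. The arrays of a group lay within 0.19 of each other, and the difference was 0.44 (SE 0.089, adjusted p = 0.0267) with vehicle and 0.48 (SE 0.089, adjusted p = 0.0271) with E2, 1.37-fold higher for the mean. Neo1, the netrin and RGM receptor neogenin, had group means of 10.74 ± 0.10, 10.81 ± 0.11, 10.99 ± 0.023, 10.94 ± 0.076 and a mean difference of 0.18 (SE 0.07, adjusted p = 0.135), called with the block (adjusted p = 0.0387). The value of Dcc, 0.31 for the mean effect and not called, rested on 1 very bright probe, while the 2 other Dcc probes were not well above background on any array. No level of Dcc is read from it.

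Both ephrin-B ligands of the set were higher with each treatment, while the third of that class, Efnb3, changed by 0.12 for the mean effect (adjusted p = 0.65). Efnb1, which signals through EPHB receptors and in reverse through its own tail, gave 11.75 and 11.65 on the vehicle arrays labelled control siRNA, 11.92 and 12.12 on their E2 counterparts, 13.44 and 13.30 on the vehicle arrays labelled FOXL2 siRNA, and 12.94 and 12.91 on their E2 counterparts. The nearest FOXL2 siRNA and control arrays were 0.79 apart, and the difference was 1.67 (SE 0.099, adjusted p = 0.000524) with vehicle, 3.18-fold higher, and 0.90 (SE 0.099, adjusted p = 0.00447) with E2, 1.87-fold higher. Efnb2, the ligand of Ephb4 and a gene of arterial identity, stood at 10.27 and 10.03 in the vehicle controls, 10.49 and 10.26 in the E2 controls, 11.14 and 11.03 after FOXL2 siRNA and vehicle, and 11.09 and 10.97 after FOXL2 siRNA and E2. It changed by 0.93 (SE 0.12, adjusted p = 0.00598) with vehicle and 0.66 (SE 0.12, adjusted p = 0.0275) with E2. Of 5 ephrin-A ligands, 0 were higher and 1 was lower. That was Efna4, which gave 9.35 and 9.34 in the vehicle controls, 9.51 and 9.53 in the E2 controls, 8.71 and 8.59 after FOXL2 siRNA and vehicle, and 9.01 and 8.78 after FOXL2 siRNA and E2, with differences of -0.70 (SE 0.11, adjusted p = 0.0125) and -0.62 (SE 0.11, adjusted p = 0.0231). Efna5 and Efna3 had group means of 9.05 ± 0.0052, 8.94 ± 0.14, 8.85 ± 0.039, 8.78 ± 0.091 and of 6.82 ± 0.42, 6.49 ± 0.35, 7.02 ± 0.042, 6.93 ± 0.086, and Efna1, Efna2, Efna3 and Efna5 had mean differences between -0.32 and 0.32.

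Among the EPH receptors of the set, Epha4 was the 1 called, while Epha1, outside the set, was called higher for the mean effect (0.88, adjusted p = 0.0169). Epha4, which binds ephrins of both classes, read 7.13 and 7.12 in the vehicle controls, 7.81 and 7.65 in the E2 controls, 6.97 and 6.42 after FOXL2 siRNA and vehicle, and 6.56 and 6.21 after FOXL2 siRNA and E2, so the FOXL2 siRNA arrays were lower than all controls and the controls with E2 were the highest. It changed by -1.35 (SE 0.21, adjusted p = 0.0149) with E2 and by -0.43 (SE 0.21, adjusted p = 0.324) with vehicle. Epha2, a receptor of ephrin-A ligands in epithelia, had group means of 12.36 ± 0.37, 12.53 ± 0.32, 13.11 ± 0.19, 12.87 ± 0.36 and a mean difference of 0.55 (SE 0.17, adjusted p = 0.0791), called with the block (adjusted p = 3.24e-05). Epha7 had group means of 5.89 ± 0.13, 5.89 ± 0.01, 6.27 ± 0.045, 5.63 ± 0.13 and a mean difference of 0.063. None of the 3 EPHB receptors was called: Ephb3, Ephb4 and Ephb2 had group means of 14.36 ± 0.04, 14.45 ± 0.17, 14.82 ± 0.19, 14.67 ± 0.22, of 9.77 ± 0.10, 9.78 ± 0.073, 9.77 ± 0.067, 9.61 ± 0.016 and of 7.00 ± 0.11, 6.80 ± 0.14, 6.96 ± 0.018, 7.41 ± 0.70, with mean differences of 0.34, -0.081 and 0.29. The 2 ephrin-B ligands of the set were thus higher while none of its 3 EPHB receptors was called, except Ephb3 with the block (adjusted p = 0.0117). Outside the set, Ephb1 changed by 1.32 for the mean effect (adjusted p = 0.117) and was called with the block (adjusted p = 0.00798). It was well above background on 3 of the 8 arrays. Ephb6 changed by 0.17 and was not called either way (adjusted p = 0.345, and 0.109 with the block).

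Slitrk6 encodes an adhesion protein with leucine-rich repeats like those of SLIT, known from the inner ear. It gave 5.53 and 4.83 in the vehicle controls, 5.19 and 4.51 in the E2 controls, 3.59 and 2.57 after FOXL2 siRNA and vehicle, and 2.40 and 1.48 after FOXL2 siRNA and E2. It was well above background on the 4 control arrays and on 0 of the 4 FOXL2 siRNA arrays, so only a bound can be given: it was at least 2.7-fold lower for the mean effect, at least 2.76-fold with vehicle and at least 2.65-fold with E2. In the fit the adjusted p was 0.00462 for the mean effect, 0.0591 with vehicle and 0.0234 with E2. The gene passed the filter through its control arrays, where it is high, so these p-values are not read as support. The bound sets the mean of the control arrays against the higher of each FOXL2 siRNA array's own value and the lowest signal well above background on it.

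**Figure D3:**
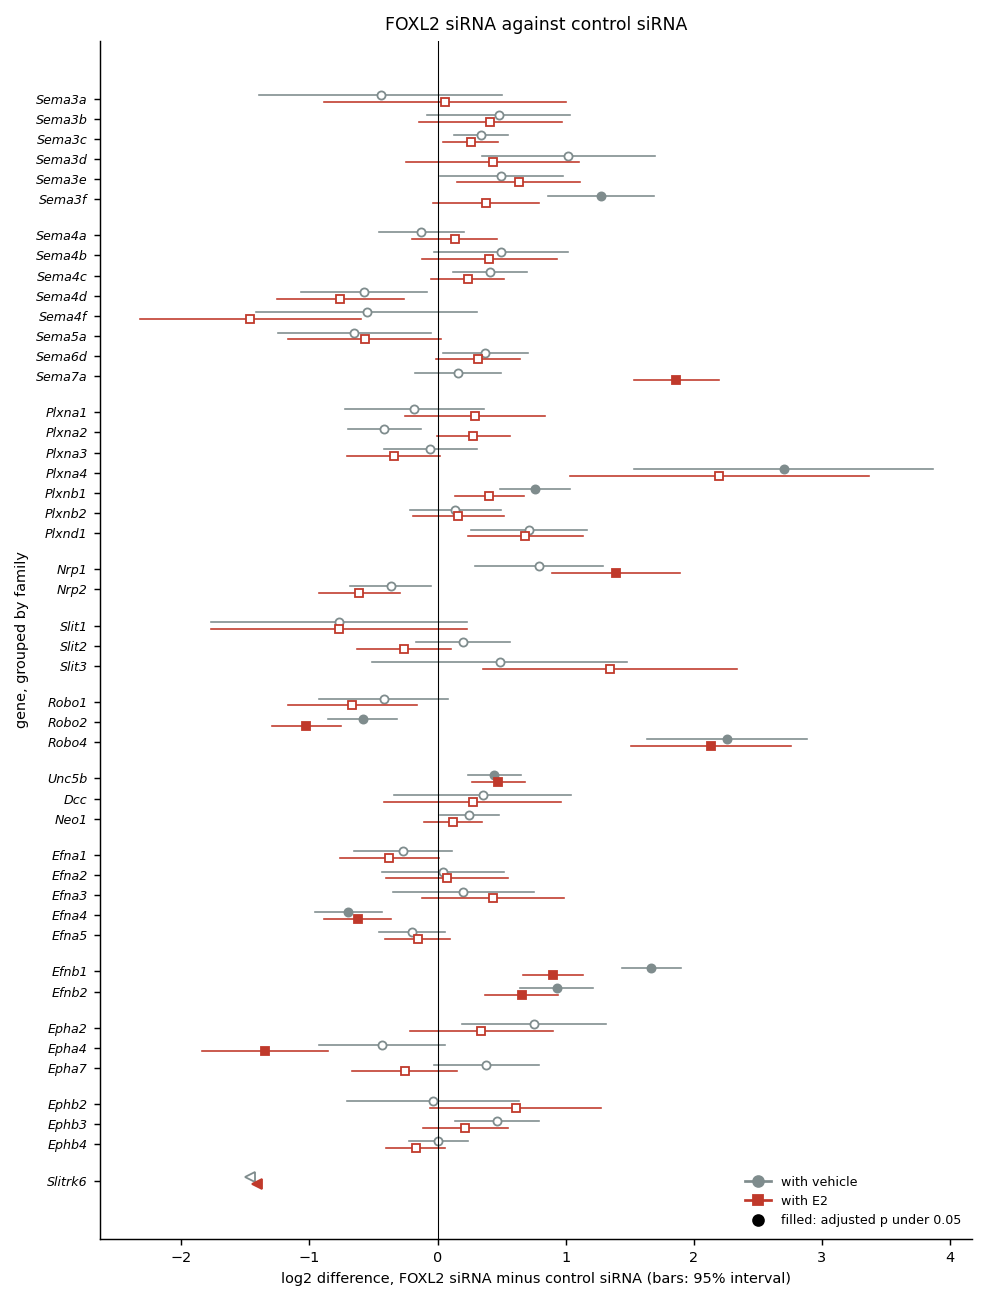
Difference between FOXL2 siRNA and control siRNA (x axis, log2 scale) for the 46 guidance genes that passed the filter (y axis, by family), with vehicle (grey) and with E2 (red). Bars are 95% intervals from limma and filled points have an adjusted p under 0.05; Plxna4 and Robo4 lie furthest to the right, and the arrowheads of Slitrk6 mark its bounds, at least 2.76-fold lower with vehicle and at least 2.65-fold with E2.

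The differences plotted by family show where both treatments gave similar values, as for Robo4 and Unc5b, and where they did not, as for Sema7a and Sema3f. Of the 46 genes, 32 had the same sign in all 4 pairs of arrays with the same treatment and replicate number, where 42.9% of all genes did.

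Markers of another cell type moved with the siRNA. Of 6 markers of the ovarian surface epithelium, all passed the filter and 4 (Krt8, Upk3b, Upk1b and Lgals7) were higher in the arrays labelled FOXL2 siRNA for the mean effect, by 0.29 to 1.47. The summed log2 level of the list lay between 12.08 and 12.26 with control siRNA and between 12.54 and 12.58 with FOXL2 siRNA. Its part in the higher guidance genes was not tested. Of the granulosa markers, Inhbb was higher and Hsd17b1 and Esr2 were lower. No marker of theca and stroma, macrophages, oocytes or smooth muscle and pericytes that passed the filter was called for the mean effect without the block. With it, Cyp17a1, Dcn, Csf1r, Ddx4 and Des were called higher, at 0.62, 0.31, 0.34, 0.84 and 0.89 (adjusted p from 0.000157 to 0.0252), and Lum and Cnn1 lower, at -0.57 and -0.35 (adjusted p = 0.00743 and 0.0126). Among markers of glia and nerve, Tubb3, a tubulin of neurons, differed by 0.63 (SE 0.074, adjusted p = 0.00191) and S100b by 1.07 (SE 0.59, adjusted p = 0.309), while Sox10 and Nefl were well above background on 0 of the 8 arrays. Their part in the results was not tested. The zona genes Zp1, Zp2 and Zp3, which define oocytes, were not well above background on any array.

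Stability of the calls was examined by leaving out each array in turn. Of the 19 genes called for the mean effect, 13 were called in all 8 such fits. The others were Sema3c, Sema3e, Sema4d, Nrp2, Plxnd1 and Sema4f, of which Plxnd1 lost its call in 1 fit, the one lacking the second FOXL2 siRNA array given vehicle (adjusted p = 0.0536). Sema3c, Sema3e, Sema4d and Sema4f kept their call in 2 of the 8 fits and Nrp2 in 4. Over the 8 fits the mean difference was 0.27 to 0.33 for Sema3c and 0.45 to 0.68 for Sema3e. It was -0.77 to -0.56 for Sema4d, -0.56 to -0.42 for Nrp2 and -1.26 to -0.75 for Sema4f. Within the single treatments, Sema3f, Robo4, Efnb1 and Efnb2 kept their call with vehicle in all 8 fits, and Sema7a, Robo2 and Efnb1 with E2. Plxna4 with vehicle and Nrp1, Epha4 and Slitrk6 with E2 kept their call in 5 of the 8 fits each. The differences ranged from 2.21 to 3.19 for Plxna4, from 1.14 to 1.65 for Nrp1 and from -1.52 to -1.17 for Epha4. Robo4 with E2 missed the threshold in 1 fit, the one lacking the second E2 control (adjusted p = 0.0518). Plxnb1, Robo2, Unc5b and Efna4 with vehicle (adjusted p up to 0.0677, 0.124, 0.161 and 0.087) and Unc5b, Efna4 and Efnb2 with E2 (up to 0.187, 0.153 and 0.157) each lost their call in 3 to 6 of the 8 fits. Among the other alternatives, the mean-effect calls of Sema3c, Sema3e and Slitrk6 were lost with normexp background correction, of Sema3e, Sema4d and Sema4f with no filter, of Sema3e and Sema4f with no intensity trend, and of Sema4f with quantile normalization. Of the single-treatment calls, 6 of 9 with vehicle and 6 of 10 with E2 held under all of them. Those lost in some were Plxna4, Robo2 and Unc5b with vehicle, and Unc5b, Efna4, Efnb2 and Slitrk6 with E2.

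The second comparison set E2 against vehicle. In the arrays labelled control siRNA, limma called 0 of the 46 genes, where it called 0.0192% of all genes. An unadjusted p under 0.05 was seen for 5 of the 46 and for 716 of all 15645 genes. Sema7a had the largest difference, -1.28 (SE 0.14, adjusted p = 0.0654), a 2.43-fold lower mean signal with E2. Both replicate numbers showed it, at -1.52 and -1.04. With the block 3 genes were called, where 1.16% of all genes were: Sema7a (adjusted p = 0.000132) and Slit3 (-0.63, adjusted p = 0.0481) were lower and Sema3f (0.67, adjusted p = 0.0421) was higher. In the arrays labelled FOXL2 siRNA, limma called 0 of the 46 genes, where it called 0.0128% of all genes. Here 4 of the 46 had an unadjusted p under 0.05, as did 478 of all 15645 genes. The block called 0 too, beside 0.614% of all genes. The largest difference of a gene well above background in both groups there was -0.64 for Epha7, with an adjusted p of 1 and 0.236 with the block.

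**Figure D4:**
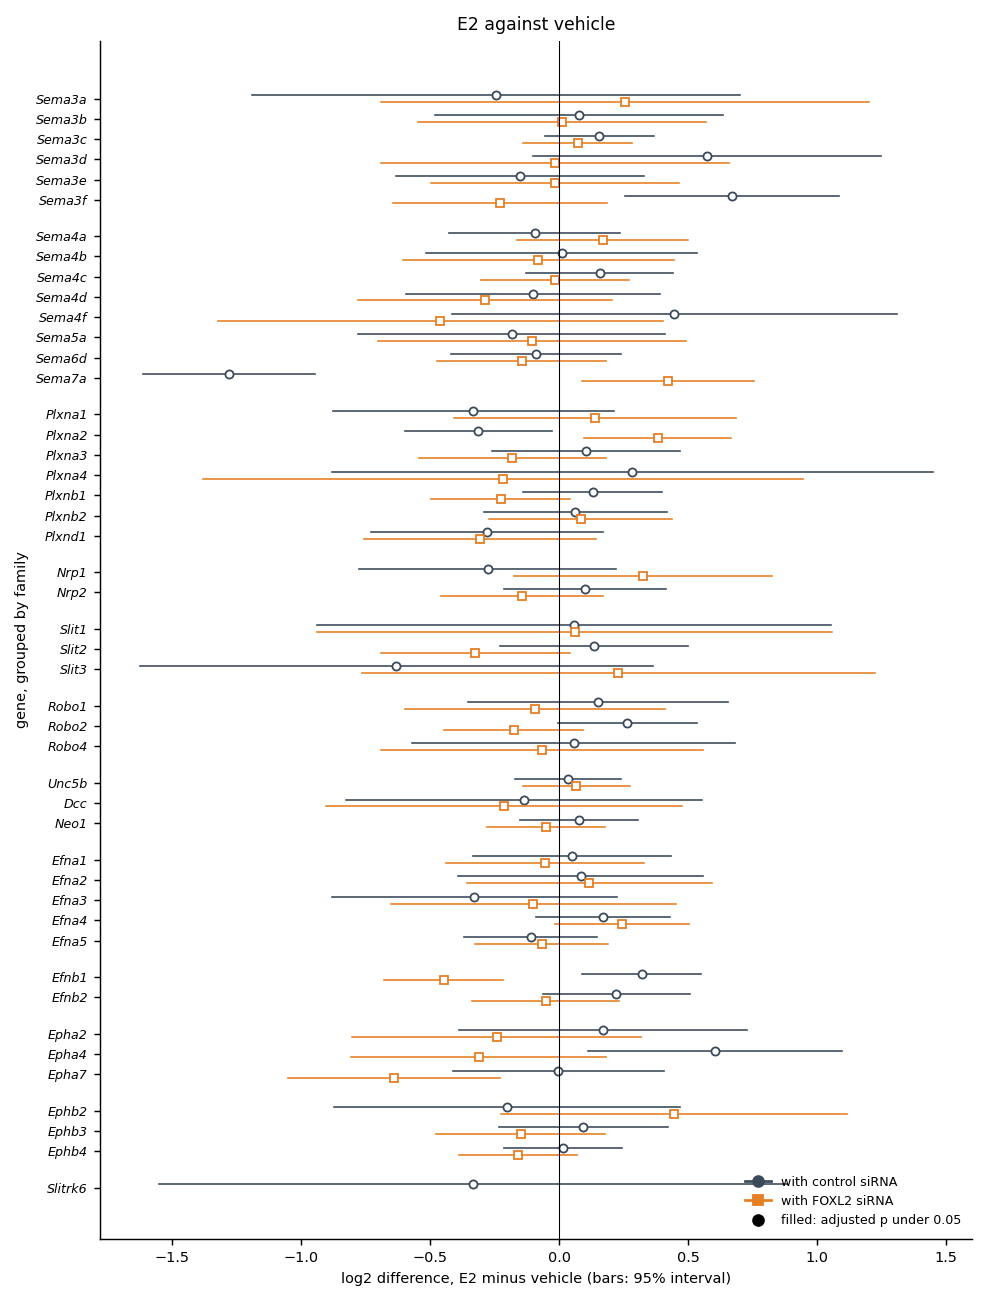
Difference between E2 and vehicle (x axis, log2 scale) for the 46 guidance genes that passed the filter (y axis, by family), with control siRNA (dark) and with FOXL2 siRNA (orange). Bars are 95% intervals from limma and no point is filled, since no gene was called in either comparison; Slitrk6 with FOXL2 siRNA is not drawn, being not well above background there; Sema7a lies at -1.28 with control siRNA and at 0.42 with FOXL2 siRNA.

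The difference between the E2 effects was then tested directly; it equals the difference between the siRNA effects with E2 and with vehicle. Sema7a was the 1 of 46 genes called, where 0.243% of all genes were. Its E2 effect was -1.28 with control siRNA and 0.42 with FOXL2 siRNA, a difference of 1.70 (SE 0.20, adjusted p = 0.0334). In the 4 pairs of arrays with the same replicate number, E2 and vehicle differed by -1.52 and -1.04 with control siRNA and by 0.42 and 0.43 with FOXL2 siRNA. The call was lost in each of the 8 fits without 1 array, with an adjusted p of up to 0.128 where the first vehicle control was left out, and also with no filter and with no intensity trend. It held with the block (adjusted p = 8.31e-05). The 4 genes that the study names as raised by E2 also had E2 differences of opposite sign between the siRNAs. Their medians were -1.68 with control siRNA and 1.25 with FOXL2 siRNA. For Sema7a, the directions, the size and call of this difference and the treatment with which its siRNA effect was called thus rest on the labels. A cause was not tested. The blocked fit called 6 genes, where 2.12% of all genes were. Besides Sema7a, Plxna2 (0.69, adjusted p = 0.0243) and Slit3 (0.86, adjusted p = 0.0385) had a higher E2 effect with FOXL2 siRNA. Efnb1 (-0.77, adjusted p = 0.00946), Sema3f (-0.90, adjusted p = 0.0354) and Sema4f (-0.91, adjusted p = 0.0243) had a lower one. The 2 probes of Plxna2 disagreed, with differences of 0.83 and -0.00069 in the fit of single probes.

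Relatives outside the 51 genes and intracellular partners were described as 2 further lists. Of 34 relatives, 20 passed the filter. For the mean siRNA effect 3 were higher (Sema6c, Epha1 and Slitrk4) and 1 was lower (Flrt3), where 12.6% of all genes were called. The median of the 20 was 0.15, beside -0.0025 for all genes. The block, which called 27.6% of all genes, added Robo3 (0.58, adjusted p = 0.00743), Epha5 (0.36, adjusted p = 0.00803), Ephb1 and Plxnc1 as higher. It added Flrt1 as lower (-0.34, adjusted p = 0.0051). Slitrk4, a relative of Slitrk6, changed by 1.28 (SE 0.056, adjusted p = 0.000111), opposite to Slitrk6, and its E2 effects of -0.63 with control siRNA and 0.30 with FOXL2 siRNA differed (adjusted p = 0.0348). Plxnc1, the plexin that binds Sema7a, changed by 0.22 for the mean siRNA effect and was not called without the block (adjusted p = 0.291). With it, Plxnc1 was called for the mean effect (adjusted p = 0.0166), with E2 (0.54, adjusted p = 0.000831) and for the difference between the E2 effects (0.65, adjusted p = 0.0137). Of 35 intracellular partners, 33 passed, 8 were higher and 1 was lower, beside the same 12.6% of all genes, with a median of 0.13. The higher ones were Dpysl2, Mical2, Srgap1, Rnd1, Rnd3, Rras, Trio and Fyn. Rnd1, a small GTPase that binds plexins, changed by 0.97 (SE 0.13, adjusted p = 0.0033), and Mical2, an enzyme that oxidises actin, by 0.80 (SE 0.084, adjusted p = 0.00115). The lower one was Dpysl3, at -0.56 (SE 0.064, adjusted p = 0.00164), which like Dpysl2 belongs to the collapsin response mediators that act after semaphorins. Among the partners the block added Dpysl4, Dpysl5, Srgap2, Srgap3 and Fes as higher and Enah as lower, beside 27.6% of all genes called.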

How the data were processed

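Total RNA from 8 cultures (50 ng each) was labelled with Cy3 and put on one-colour Agilent arrays of 62976 spots, designed on mm9. Per the file headers, the deposited intensity of a spot is background-subtracted and detrended by Agilent Feature Extraction, with no scaling between arrays. The authors deposited, as a second table, log2 values scaled to the 75th percentile and averaged per gene. These matched the log2 values recomputed here within 0.001 at 98.8 to 99.0% of genes, up to a constant per array.

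Here, control and flagged spots were left out (55642 of 55681 probes used), the deposited intensity was scaled to the 75th percentile (275 to 367 units), and probes sharing an Entrez ID were averaged (24235 genes). Genes whose median scaled signal reached 10 were fitted with limma 3.58.1 (R 4.3.3) as 4 group means with an intensity trend, leaving 4 residual degrees of freedom. All tests were two-sided. The fit was checked on simulated data. Groups came from the sample titles. Each replicate is a pool of mice per the labels, which do not say whether groups of equal number share a pool, and 2 arrays per group limit the precision. Arrays of equal replicate number deviated together (correlations of 0.33 to 0.45 between groups across 15645 genes). They were therefore paired in the fit with the block, while the fit of 4 group means does not pair them.

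The members and lists, the markers and the motifs were chosen with earlier results of these data known. Named are all called members, the 5 uncalled with the largest absolute mean siRNA effect and the 3 brightest of each family; other members named with values were chosen after these were seen. Alternatives were quantile normalization, normexp, the authors' table, the brightest probe, detected probes, no or a stricter filter (50), no trend, only the groups compared, the block, median centring, the study's rule and leaving out each array; fitting every probe on its own was added after seeing the data. Part of a further marker list is not reported here. Probe positions are not given, since the gene table is on another build than the arrays. Figures used Python with numpy, pandas and matplotlib.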

Additional observations from a re-analysis of the deposited data

Results flagged for a closer look

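The E2 effect on Sema7a differed between the siRNAs, by 1.70 on the log2 scale in the test of that difference (limma adjusted p = 0.0334, and 8.31e-05 with the replicate block). The call was lost in each of the 8 fits without 1 array (adjusted p up to 0.128), with no filter and with no intensity trend. With 2 arrays per group, no single array could be examined for standing apart. The 4 genes that the study names as raised by E2 also had opposite signs between the siRNAs. Their median E2 difference was -1.68 with control siRNA and 1.25 with FOXL2 siRNA. The directions, the size and the call of this difference for Sema7a therefore rest on the labels, and a cause was not tested.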

How the results depend on the processing

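All called changes kept their direction under every alternative run. The replicate block raised the number of genes called to 26 for FOXL2 siRNA with vehicle (9 in the fit of 4 group means), 23 with E2 (10), 31 for the mean effect (19), 3 for E2 with control siRNA (0) and 6 for the difference between the E2 effects (1). For E2 with FOXL2 siRNA it gave 0. The study's rule, which asks for a difference of at least 1 that exceeds 2 times the sum of both SDs, found 4 genes with vehicle, 6 with E2 and 1 for E2 with control siRNA. The counts from this rule and from the alternatives that follow stand without the share of all genes. They show only how far the calls depend on the processing. Normexp called 1 gene, Sema7a, for E2 with control siRNA. With no filter, and with no intensity trend, 0 genes were called for the difference between the E2 effects. Leaving out 1 array gave 4 to 9 genes with vehicle, 3 to 11 with E2, 13 to 22 for the mean effect and 0 for the difference. The count with vehicle fell to 4 without the second vehicle control and to 5 without either FOXL2 siRNA array given vehicle. The count with E2 fell to 4, 3 and 4 without the first E2 control, the second E2 control and the second FOXL2 siRNA array given E2. The cause was not tested. In normexp the calls of Sema3c, Sema3e and Slitrk6 were lost for the mean effect, and that of Slitrk6 with E2. Over the called changes and alternatives together, 666 values kept their side of the threshold and 123 did not. No alternative shifted the median of all genes by over 0.1. With 2 arrays per group, only differences large against the spread could pass, and genes near the background carry bounds.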
